A study of Mus musculus with 6 samples.

Results

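Glycolysis, gluconeogenesis and glycogen metabolism were followed through 42 genes in bulk RNA-Seq of primary mouse hepatocytes before and after partial hepatectomy (PHx), the surgical removal of part of the liver. The genes were taken by name from the 55450 genes of the count files. They comprise 6 genes of glucose entry, 11 of upper glycolysis, 9 of lower glycolysis, 7 of gluconeogenesis and glucose release, 8 of glycogen metabolism and 1 of fructose entry, and the liver forms of several enzymes stand among them beside the muscle, brain or widely expressed forms. All 42 had at least 10 counts in at least 3 libraries and were tested, as were 17037 genes in all. The study asked how hepatocytes keep up metabolic functions while they proliferate. The 0 h group was 3 libraries from undamaged liver, not from sham-operated mice, and the 48 h group was 3 libraries from liver 48 h after PHx. All 6 came from C57BL/6 mice (C57BL/6J in the study's methods) on a normal diet with no transgene, mutation or drug named, which the labels put at 10 to 12 weeks of age and the study's methods describe as male and slightly younger. Hepatocytes were released by collagenase perfusion, and the study's text counts the 3 libraries of a time point as biological replicates from separate preparations, whereas the labels give only replicate numbers.

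As background, glycolysis breaks glucose down to pyruvate and lactate, and gluconeogenesis runs most of the same steps backwards, with enzymes of its own only where glycolysis is irreversible. The liver is the main organ that makes glucose and releases it into the blood, because it carries glucose-6-phosphatase and the transporter Slc2a2 (GLUT2), and it stores surplus glucose as glycogen. Many steps have isoenzymes from separate genes, and fetal liver, muscle and proliferating cells commonly use other forms than adult liver does.

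Levels are given as CPM (counts scaled to a common library total), adjusted with TMM factors, which correct for differences in RNA composition between libraries, or, where genes are compared with each other, as TPM (likewise scaled, after division by the length of the gene). Each library held between 31419443 and 36346220 gene counts, so that 3 counts, taken as the detection floor, corresponded to 0.0825 to 0.0955 CPM before that scaling. Each gene was tested for a difference between 0 h and 48 h with edgeR's quasi-likelihood test over all 17037 genes, with Benjamini-Hochberg adjusted p under 0.05 as the threshold. Over all genes, 3638 were higher and 3288 lower at 48 h. Without the TMM factors the median log2 fold change of all genes shifted by 0.20, and the share of calls that were increases went from 52.53% to 71.58%. The hepatocyte identity of the libraries was plain at both times. The 10 hepatocyte markers summed to 108578 to 128256 CPM at 0 h and 74776 to 90575 CPM at 48 h, with 4 of the 10 lower and 1 higher. Markers of other cells were far lower, at 224 to 351 and 166 to 185 CPM for 10 endothelial genes, of which 9 were lower at 48 h, and at 78.4 to 118 and 112 to 137 CPM for 10 Kupffer cell genes, of which 2 were higher. Of the other lists, 9 of 10 stellate cell genes were tested and gave 1 increase and 2 decreases (sums of 69.5 to 113 and 60.5 to 72.0 CPM). For cholangiocytes, 4 of 8 genes were tested and gave 2 increases (56.2 to 60.5 and 51.9 to 63.5 CPM). Most of that sum was Slc4a2, at 34.5 to 46.8 CPM and not called, while Krt19, Krt7, Epcam and Cftr had at most 4 counts in any library. For lymphocytes, 2 of 10 genes were tested and gave 1 decrease (6.30 to 6.78 and 4.19 to 5.74 CPM). The erythroid list, of which 7 genes were in the files and 1 was tested and lower, summed to 56.1 to 86.7 CPM at 0 h and 18.8 to 40.5 CPM at 48 h. None of 10 neutrophil and monocyte genes or of 8 skeletal muscle genes had enough counts for a test, and both sums stayed between 0.181 and 1.06 CPM, with 3 and 2 genes at 0 counts in every library. The part of these shifts in the results that follow was not tested. In bulk RNA, fewer cells of a type and less RNA per cell cannot be told apart.

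Of the 42 genes, 7 were higher and 12 lower at 48 h, and 23 did not pass the threshold. Among all genes tested, 40.7% were called, 21.4% as higher and 19.3% as lower, against 45.2%, 16.7% and 28.6% of the 42. For 24 of the 42 the ranges at 0 h and 48 h did not overlap, beside 52.7% of all genes. The median log2 fold change of the 42 was -0.16, beside -0.003 for all genes, and it became 0.048 without TMM factors, when the median of all genes was 0.20. Increases ranged from 0.53 to 1.98 and decreases from -3.14 to -0.59 on the log2 scale. Of the 7 increases, 4 were enzymes of reversible steps from triose phosphate to lactate (Tpi1, Gapdh, Pgk1 and Ldha). Of the 12 decreases, 4 were in glycogen metabolism, and G6pc and Slc37a4 of glucose release, Slc2a2 and Gckr of glucose entry, the liver pyruvate kinase Pklr and the fructose kinase Khk were among the others. All 19 calls held in the 8 alternative analyses that used all 6 libraries, and 17 of them also held when any single library was left out.

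**Figure D1:**
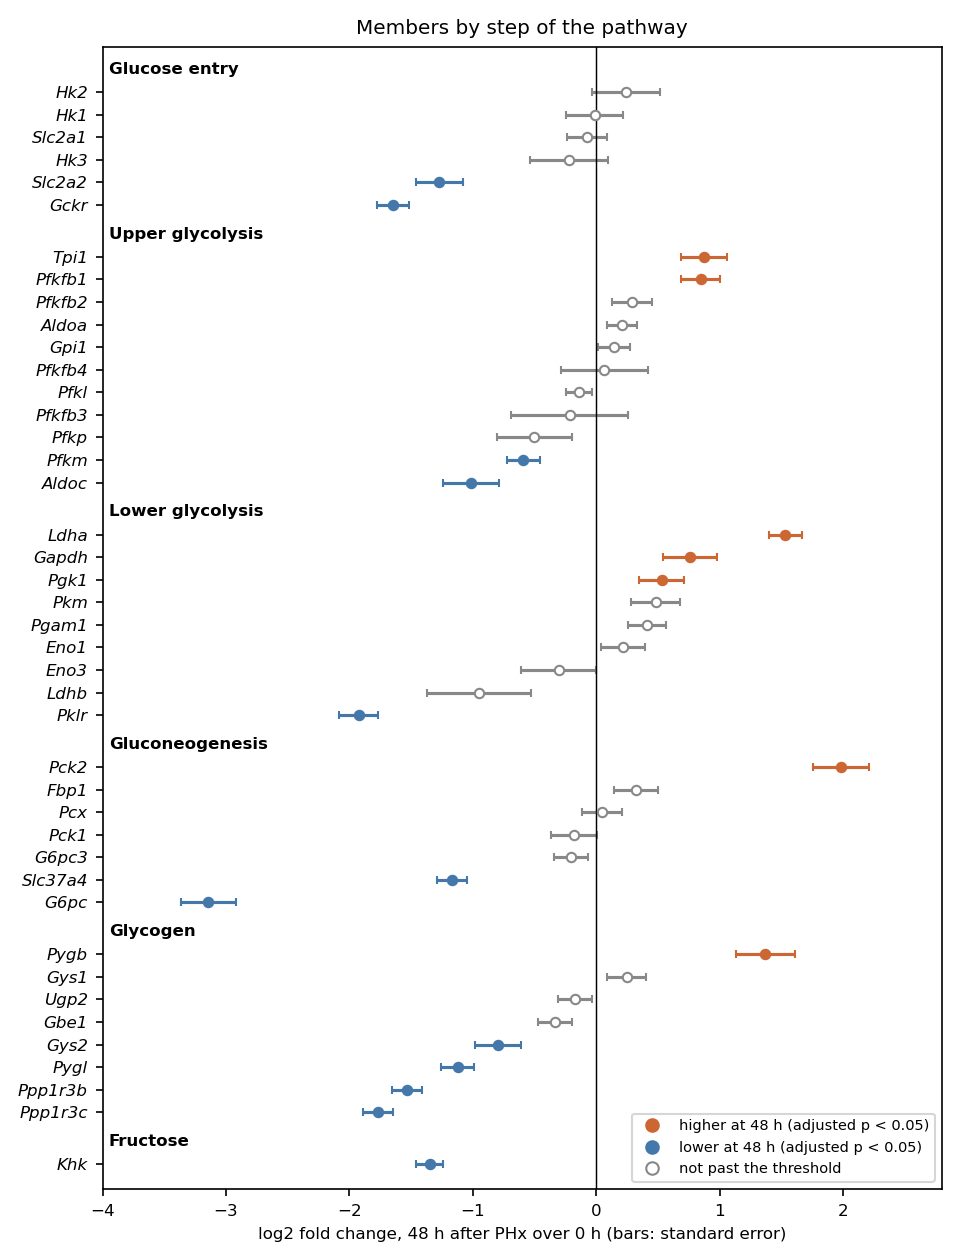
Log2 fold change at 48 h over 0 h for the 42 genes by step of the pathway, with standard errors as bars and colour for genes past the threshold in either direction. G6pc lies farthest to the left at -3.14 and Pck2 farthest to the right at 1.98, and the hollow points of the 23 uncalled genes lie between -0.95 and 0.48.

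Per length, gluconeogenesis supplied the most abundant transcripts of the 42 genes. At 0 h the highest levels were those of G6pc with 1367 TPM ± 54.6 (SD, n = 3), Pck1 with 1366 TPM ± 144 and Fbp1 with 780 TPM ± 80.0 (both n = 3). G6pc and Pck1 did not differ beyond their spread. At 48 h Pck1 led with 1434 TPM ± 289, followed by Fbp1 with 1165 TPM ± 213 and Gapdh with 911 TPM ± 152, and each of these levels lay within the combined SDs of its neighbour. Ldha followed with 630 TPM ± 57.3, apart from Gapdh by more than their SDs. G6pc had moved from rank 1 to rank 7 of the 42, and Ldha from rank 7 to rank 4. At 0 h, 16 genes were at or above 100 TPM, and 6 genes were under 1 TPM at both times.

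The summed TPM of the 42 genes was 6476 ± 172 at 0 h and 6464 ± 771 at 48 h (SD, n = 3 each), so their common share of the transcripts differed by less than the spread. Within that sum the 9 lower glycolysis genes went from 973 ± 153 to 1938 ± 243 TPM and the 11 upper glycolysis genes from 354 ± 39.5 to 623 ± 62.7 TPM. The 7 gluconeogenesis genes went from 3922 ± 29.4 to 3205 ± 558 TPM, the 8 glycogen genes from 585 ± 5.68 to 387 ± 59.6 TPM and the 6 glucose entry genes from 318 ± 21.8 to 158 ± 22.7 TPM. None of these 5 sums overlapped between 0 h and 48 h. Without G6pc the other 6 gluconeogenesis genes summed to 2556 ± 63.5 TPM at 0 h and 3021 ± 510 TPM at 48 h, with overlapping libraries, so the lower sum at 48 h was that of G6pc. Without Tpi1 the other 10 upper glycolysis genes went from 174 ± 5.11 to 230.2 ± 6.15 TPM. TPM sum to the same total in each library and carry no TMM factor, so they read higher at 48 h, relative to 0 h, than TMM-scaled CPM do.

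Of the 6 genes of glucose entry, 2 were lower at 48 h and 4 did not pass the test. Slc2a2, the transporter that lets glucose pass the hepatocyte membrane in both directions (chr3:28697903-28731359, GRCm38), had 347, 368 and 438 CPM at 0 h and 112, 182 and 184 CPM at 48 h. Every 48 h library lay below every 0 h library, and the gene was 2.41-fold lower (log2 fold change -1.27 ± 0.19 SE, adjusted p = 0.000479). Gckr, a regulatory protein of glucose phosphorylation in the liver (chr5:31297443-31327314), had 195, 235 and 192 CPM at 0 h and 70.2, 58.3 and 70.3 CPM at 48 h. It was 3.13-fold lower (log2 fold change -1.65 ± 0.13 SE, adjusted p = 6.50e-06). Slc2a1 (GLUT1), the transporter of most other cells, overlapped between the time points, at 22.0 to 30.7 and 20.2 to 28.7 CPM (adjusted p = 0.732). The hexokinases Hk1, Hk2 and Hk3, which phosphorylate glucose in most tissues outside the liver, stayed under 3 CPM in all 6 libraries, and none passed the test (log2 fold changes -0.01, 0.24 and -0.22, adjusted p from 0.522 to 0.968).

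Upper glycolysis, the steps from glucose-6-phosphate to triose phosphate, gave 2 increases and 2 decreases among 11 genes, with a median log2 fold change of 0.06. Tpi1, which interconverts the triose phosphates, had 221, 143 and 209 CPM at 0 h and 398, 372 and 280 CPM at 48 h, and the groups did not overlap. It was 1.83-fold higher (log2 fold change 0.87 ± 0.19 SE, adjusted p = 0.00415). Pfkfb1 codes for the liver form of the bifunctional enzyme that makes and degrades fructose 2,6-bisphosphate, the main allosteric signal between glycolysis and gluconeogenesis. It had 34.2, 26.1 and 34.0 CPM at 0 h and 67.7, 55.8 and 45.7 CPM at 48 h, a 1.80-fold increase (log2 fold change 0.84 ± 0.16 SE, adjusted p = 0.00182). The decreases were in forms known from other tissues. The muscle phosphofructokinase Pfkm had 14.2, 12.2 and 11.6 CPM at 0 h and 8.14, 8.73 and 8.35 CPM at 48 h (log2 fold change -0.59 ± 0.13 SE, adjusted p = 0.00494), and 10.2% of its exon bases are shared with Gm26513. The brain aldolase Aldoc had 16.8, 9.55 and 13.7 CPM at 0 h and 7.40, 7.56 and 4.86 CPM at 48 h (log2 fold change -1.02 ± 0.23 SE, adjusted p = 0.00515).

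The other 7 genes of upper glycolysis did not pass the test. The liver phosphofructokinase Pfkl, the rate-limiting enzyme of the pathway together with its isoenzymes, had 20.2 to 23.3 CPM at 0 h and 19.7 to 20.4 CPM at 48 h. The widely expressed aldolase Aldoa had 40.8 to 52.7 and 50.1 to 60.2 CPM and passed with library size only (log2 fold change 0.41, adjusted p = 0.0149), and the isomerase Gpi1 had 126 to 165 and 153 to 178 CPM. A second gene record named Aldoa, with no more than 12 counts in any library, was not tested. Pfkp, the platelet phosphofructokinase, and Pfkfb4 stayed under 1 CPM in every library. Pfkfb2 had 15.8, 22.5 and 15.9 CPM at 0 h and 25.7, 20.4 and 20.1 CPM at 48 h (adjusted p = 0.185). It passed the threshold without 0 h replicate 2 (log2 fold change 0.47, adjusted p = 0.0234) and with library size only, without TMM factors (0.48, adjusted p = 0.0305). Pfkfb3, an inducible form of the bifunctional enzyme with mainly kinase activity (chr2:11471433-11554077), had 17.4, 88.2 and 25.5 CPM at 0 h and 30.9, 34.2 and 47.8 CPM at 48 h. Replicate 2 of the 0 h group stood above all other libraries for this gene, and the log2 fold change of -0.22 ± 0.47 SE (adjusted p = 0.746) turned to 0.80 (adjusted p = 0.0185) without it.

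In lower glycolysis, from triose phosphate to lactate, 3 of 9 genes rose and 1 fell, and the median log2 fold change was 0.41. Ldha, the subunit of lactate dehydrogenase that predominates in muscle and many proliferating cells, showed the largest increase of the glycolytic genes (chr7:46841475-46855627). It had 234, 227 and 238 CPM at 0 h and 775, 627 and 619 CPM at 48 h. The spread within each time point was small beside the difference, and the gene was 2.89-fold higher (log2 fold change 1.53 ± 0.14 SE, adjusted p = 1.41e-05). Gapdh, the dehydrogenase that makes the first NADH of glycolysis (chr6:125161715-125166467), had 762, 517 and 883 CPM at 0 h and 1466, 1228 and 963 CPM at 48 h. It was 1.69-fold higher (log2 fold change 0.76 ± 0.22 SE, adjusted p = 0.0183). Its adjusted p was 0.0515, with a log2 fold change of 0.60, when replicate 1 of the 48 h group was left out. Pgk1, which makes the first ATP of the pathway, had 70.4, 49.1 and 72.2 CPM at 0 h and 113, 89.7 and 73.4 CPM at 48 h, so its groups were parted only by the gap between 72.2 and 73.4 CPM. Its log2 fold change was 0.53 ± 0.18 SE (adjusted p = 0.0408). Without 0 h replicate 1, 0 h replicate 2, 48 h replicate 1 or 48 h replicate 2 it was 0.59, 0.36, 0.35 or 0.55 in turn, and the adjusted p was 0.0604 to 0.143.

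Pklr, the pyruvate kinase of liver and red cells at the irreversible end of glycolysis, was the 1 decrease in lower glycolysis (chr3:89136142-89146784). It had 137, 106 and 127 CPM at 0 h and 26.8, 31.2 and 39.3 CPM at 48 h, with no overlap. The gene was 3.80-fold lower (log2 fold change -1.93 ± 0.16 SE, adjusted p = 7.71e-06). Of its exon bases, 22.0% are shared with Hcn3 on the opposite strand. Pkm, the pyruvate kinase of muscle, fetal and proliferating tissue, had 3.92, 6.64 and 6.12 CPM at 0 h and 7.16, 8.59 and 7.55 CPM at 48 h. Its libraries did not overlap, but the test was not passed (log2 fold change 0.48 ± 0.20 SE, adjusted p = 0.0796), and it was passed without 0 h replicate 2 (0.62, adjusted p = 0.0454) and without TMM factors (0.68, adjusted p = 0.0203). Pgam1 gave 0.41 ± 0.15 SE (adjusted p = 0.0557) and passed without 48 h replicate 3 (0.56, adjusted p = 0.0111), with library size only (0.61, adjusted p = 0.00526) and with no count filter (0.40, adjusted p = 0.0247). The main enolase Eno1 gave 0.22 (adjusted p = 0.363). The muscle enolase Eno3 stayed at 0.921 to 1.86 CPM (adjusted p = 0.451) and the heart subunit of lactate dehydrogenase, Ldhb, at 0.149 to 0.677 CPM (adjusted p = 0.0970).

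Pklr and Ldha lay at the ends of the lower glycolysis genes by fold change, and Pck1, the gene of the committed step of gluconeogenesis, was the most abundant of the 42 per length at 48 h, so the DNA just before a transcription start of each is shown. RefSeq promoters on GRCm38.p6 were found for 40 of the 42 genes, with 62 starts between them. Each stretch below begins 250 bases before the RefSeq start, runs 5′ to 3′ on the plus strand and ends before any exon of the annotation. Pck1 is given as chr2:173152823-173153047, Pklr before the downstream of its 2 starts as chr3:89136373-89136571 and Ldha before the upstream of its 2 starts as chr7:46845554-46845803. Capitals mark matches, on either strand, to motifs that were picked after the sequences had been read: CACGGG and CCCGTG set 5 bases apart, a form of the carbohydrate response element, TTACGTCA and TGACGTCA, forms of the cAMP response element, the E-box CACGTG, and ACGTG, the core of the hypoxia response element, which every E-box of this kind contains.
Pck1: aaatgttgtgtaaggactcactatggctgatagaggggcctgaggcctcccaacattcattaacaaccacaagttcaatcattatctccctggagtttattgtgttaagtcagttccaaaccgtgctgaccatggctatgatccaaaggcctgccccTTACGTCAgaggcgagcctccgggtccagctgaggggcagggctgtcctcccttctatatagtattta
Pklr: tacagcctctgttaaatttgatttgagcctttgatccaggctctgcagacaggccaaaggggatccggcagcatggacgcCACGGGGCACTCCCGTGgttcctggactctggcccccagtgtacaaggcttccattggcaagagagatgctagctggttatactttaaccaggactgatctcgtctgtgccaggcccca
Ldha: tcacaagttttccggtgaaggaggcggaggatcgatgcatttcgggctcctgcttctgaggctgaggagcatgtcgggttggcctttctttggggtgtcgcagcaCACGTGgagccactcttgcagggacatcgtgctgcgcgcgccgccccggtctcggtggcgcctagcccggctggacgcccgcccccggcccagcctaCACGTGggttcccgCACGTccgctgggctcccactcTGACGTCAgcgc

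The marked bases of Pck1 begin 93 bases before its start, and TTACGTCA was present in 0.448% of all 32851 RefSeq promoter stretches of 250 bases. In Pklr the marked run begins 170 bases before the start, and no other promoter in the table held that arrangement. In Ldha the E-boxes begin 145 and 48 bases before the start, a separate ACGTG core on the other strand begins at 34 bases and TGACGTCA at 12 bases. CACGTG was present in 6.02% of all promoters and in 8 of the 62 of these genes, ACGTG in 16.6% of all and in 22 of the 62, and TGACGTCA in 1.55% of all and in 1 of the 62, that of Ldha. A match of letters is a description and not evidence that a factor binds there.

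Gluconeogenesis split between its final step and the rest. G6pc, the catalytic subunit of glucose-6-phosphatase that releases free glucose from the hepatocyte (chr11:101367561-101377903), had 1319, 1189.5 and 1305 CPM at 0 h and 178, 157 and 97.0 CPM at 48 h. Its 48 h level was 11.3% of that at 0 h, with no overlap, which made it the largest decrease of the 42 genes (log2 fold change -3.14 ± 0.22 SE, adjusted p = 2.36e-06). Slc37a4, the transporter that brings glucose-6-phosphate to that enzyme in the endoplasmic reticulum (chr9:44396852-44402968), had 115, 142 and 125 CPM at 0 h and 61.8, 55.0 and 52.8 CPM at 48 h. It fell together with G6pc, by 1.17 on the log2 scale (SE 0.12, adjusted p = 3.58e-05). G6pc3, the widely expressed phosphatase form, stayed low at 7.29 ± 0.391 and 6.32 ± 0.459 CPM (SD, n = 3 each), and did not pass the test (log2 fold change -0.21, adjusted p = 0.273).

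Of the enzymes before that final step, Pck1, Fbp1 and Pcx did not pass the test and Pck2 rose. Pck1, the cytosolic PEP carboxykinase, had 1737, 1966 and 1700.2 CPM at 0 h and 1984, 1579 and 1216 CPM at 48 h, and the groups overlapped (log2 fold change -0.18 ± 0.19 SE, adjusted p = 0.482). Fbp1, the fructose-1,6-bisphosphatase opposed to phosphofructokinase, had 518, 444 and 576 CPM at 0 h and 710, 725 and 488 CPM at 48 h (log2 fold change 0.32 ± 0.18 SE, adjusted p = 0.173), and it passed the test without 48 h replicate 3 (0.49, adjusted p = 0.0326) and with library size only (0.52, adjusted p = 0.0278). The carboxylase Pcx, which carries pyruvate into the pathway, had 529, 470 and 565 CPM at 0 h and 656, 491 and 467 CPM at 48 h (log2 fold change 0.05, adjusted p = 0.842). Pck2, the mitochondrial PEP carboxykinase (chr14:55540266-55551242), had 1.09, 1.87 and 1.90 CPM at 0 h and 6.63, 6.83 and 5.86 CPM at 48 h. This 3.97-fold rise was the largest of the 42 (log2 fold change 1.98 ± 0.23 SE, adjusted p = 7.61e-05). Per length, Pck2 remained scarce beside Pck1, with 2.56 TPM ± 0.16 against 1434 TPM ± 289 at 48 h (SD, n = 3).

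**Figure D2:**
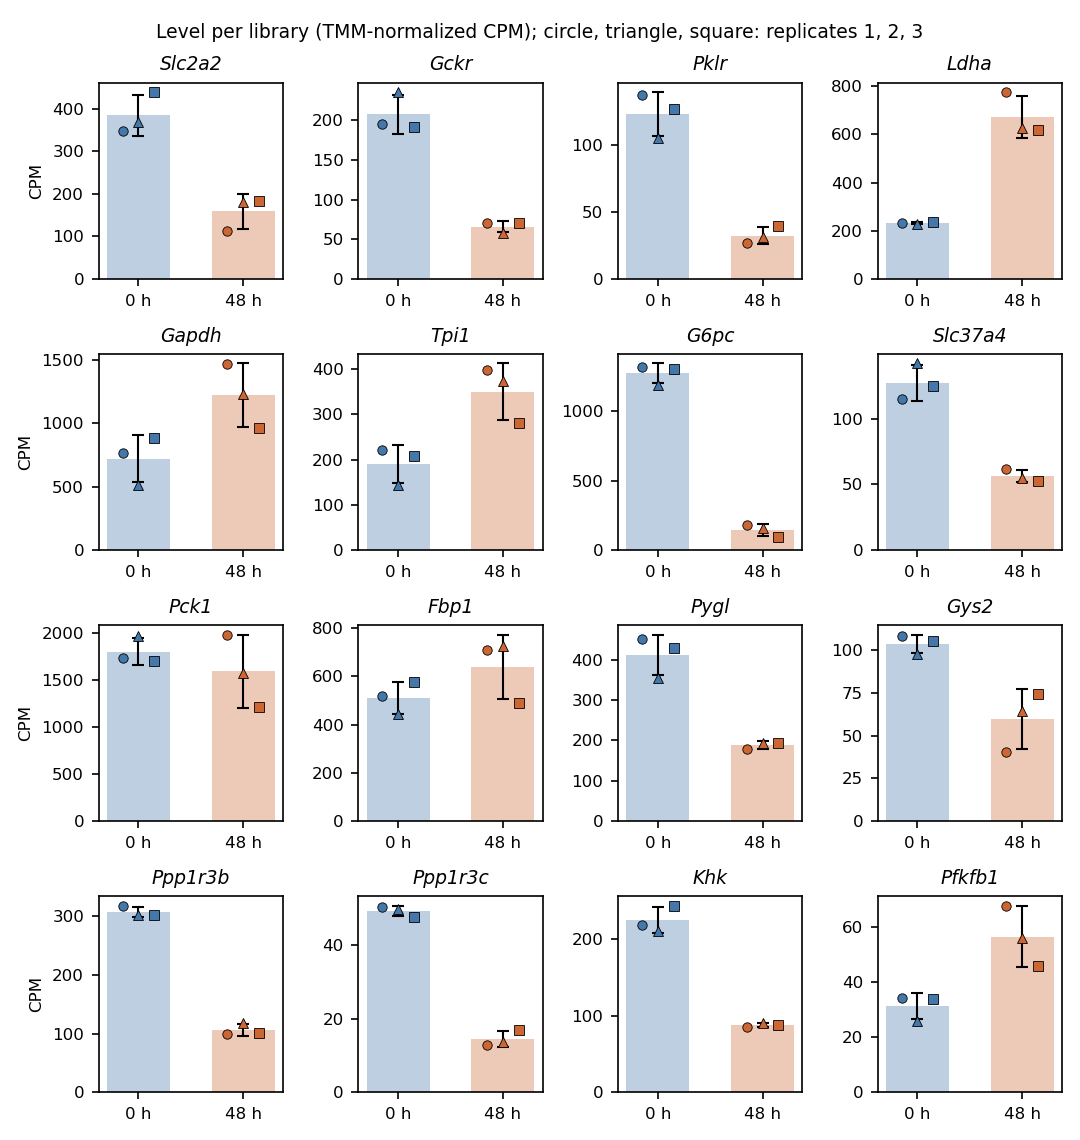
TMM-scaled CPM of 16 of the 42 genes at 0 h and 48 h, with bars for the mean, error bars for the SD and a marker for each of the 3 libraries of a time point. The 3 libraries at 48 h lie below all 0 h libraries for G6pc, Pklr and Ppp1r3c and above them for Ldha, and they overlap with the 0 h libraries for Pck1 and Fbp1.

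In glycogen metabolism the liver forms of synthase and phosphorylase and both phosphatase-targeting subunits fell, with 4 decreases and 1 increase among 8 genes and a median log2 fold change of -0.56. Ppp1r3b and Ppp1r3c code for subunits that bring protein phosphatase 1 to glycogen, where it favours synthesis. Ppp1r3b (chr8:35375739-35388139) had 318, 302 and 303 CPM at 0 h and 100.3, 118 and 101 CPM at 48 h. It was 2.89-fold lower (log2 fold change -1.53 ± 0.12 SE, adjusted p = 5.08e-06). Ppp1r3c (chr19:36731731-36736653) had 50.4, 49.8 and 47.7 CPM at 0 h and 12.8, 13.8 and 16.8 CPM at 48 h. It was 3.41-fold lower (log2 fold change -1.77 ± 0.12 SE, adjusted p = 2.05e-06). For both subunits the libraries of a time point lay close together and the groups stood well apart. The liver glycogen phosphorylase Pygl, which breaks glycogen down (chr12:70190811-70231488), had 451, 355 and 428 CPM at 0 h and 178, 195 and 194 CPM at 48 h. It was 2.18-fold lower (log2 fold change -1.12 ± 0.13 SE, adjusted p = 9.49e-05), and the 48 h libraries were nearly level with each other. The liver glycogen synthase Gys2 (chr6:142422613-142473109) had 108, 97.4 and 105 CPM at 0 h and 40.5, 64.2 and 74.3 CPM at 48 h. It was 1.74-fold lower (log2 fold change -0.79 ± 0.19 SE, adjusted p = 0.00686). Enzymes of synthesis and of breakdown were thus both among the decreases.

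Pygb, the brain glycogen phosphorylase (chr2:150786735-150831758), went the other way, from 2.08, 2.77 and 2.38 CPM at 0 h to 8.17, 5.99 and 4.57 CPM at 48 h. Its log2 fold change was 1.37 ± 0.24 SE (adjusted p = 0.0011), from a level that was far below that of Pygl per length, at 1.30 TPM ± 0.21 against 155 TPM ± 16.7 at 0 h (SD, n = 3). The muscle synthase Gys1 did not pass the test (log2 fold change 0.24, adjusted p = 0.237) although its libraries did not overlap, and it passed with library size only (0.45, adjusted p = 0.0452). The branching enzyme Gbe1, with 87.3 to 104 CPM at 0 h and 62.5 to 87.4 CPM at 48 h, gave -0.33 ± 0.14 SE (adjusted p = 0.0735) and passed without 48 h replicate 3 (-0.45, adjusted p = 0.0280), and with all 6 libraries under TMM from protein-coding genes (-0.39, adjusted p = 0.0407) and with no count filter (-0.35, adjusted p = 0.0485). Ugp2, which makes the UDP-glucose that glycogen is built from, gave -0.17 (adjusted p = 0.352). Khk, ketohexokinase, which commits fructose to metabolism in the liver (chr5:30921431-30931248), had 218, 211 and 244 CPM at 0 h and 85.1, 90.5 and 88.4 CPM at 48 h. It was 2.55-fold lower (log2 fold change -1.35 ± 0.11 SE, adjusted p = 8.22e-06).

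The libraries of a time point were ranked by CPM for each gene. Replicate 2 of the 0 h group was the lowest of its group for 24 of the 42 genes (57.1%, against 40.1% of all genes tested), among them 8 of the 11 in upper and 7 of the 9 in lower glycolysis. Replicate 3 of the 48 h group was the lowest of its group for 22 genes (52.4%, against 34.9% of all genes tested), including all 7 of gluconeogenesis. Replicate 1 of that group was the lowest for 17 genes (40.5%, against 34.4%), 7 of them among the 8 glycogen genes. In glucose entry no library was lowest for more than 3 of the 6 genes. Without 0 h replicate 2 the count was 9 higher and 12 lower, without 48 h replicate 3 it was 9 and 13, and without 48 h replicate 1 it was 5 and 12.

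**Figure D3:**
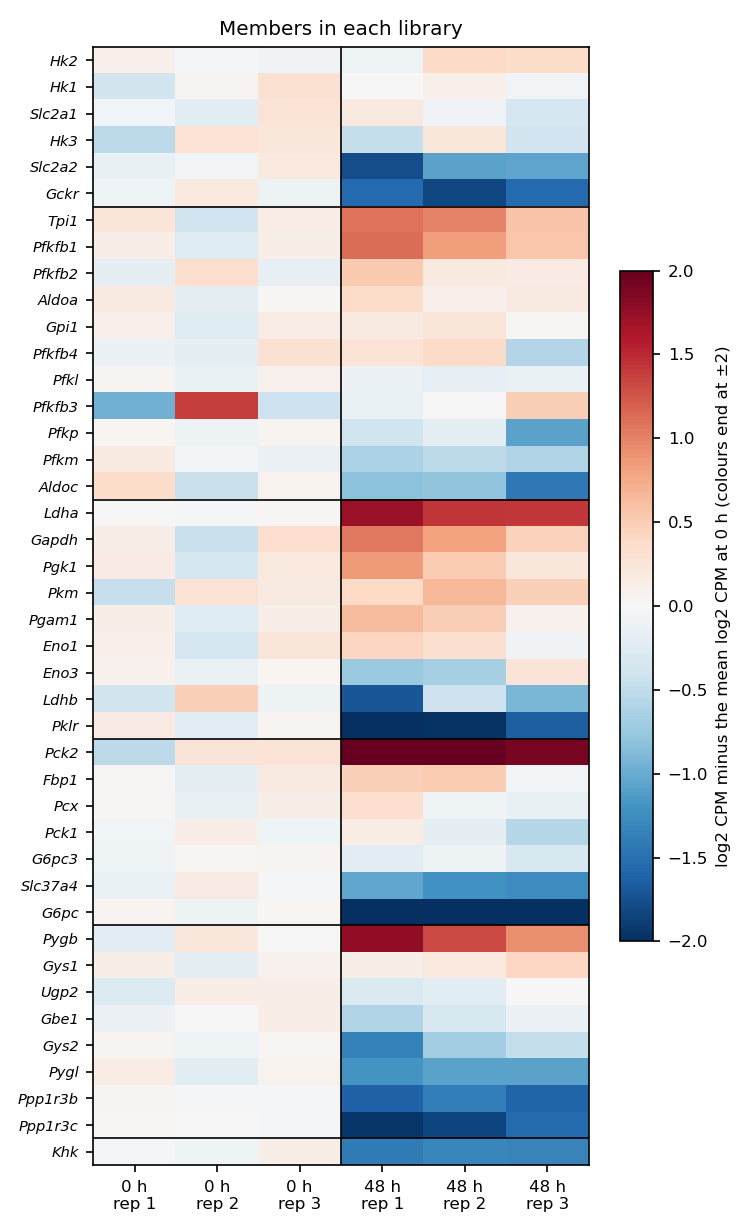
Log2 CPM of the 42 genes in each of the 6 libraries, less the mean log2 CPM of the gene at 0 h, with genes grouped by step and colours that end at ±2. G6pc, Pklr, Ppp1r3c and Gckr are blue in all 3 libraries at 48 h and Pck2, Ldha and Pygb are red, and Pfkfb3 is red in 0 h replicate 2.

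Isoenzymes were compared as log2 ratios of length-normalized levels within each library, which do not depend on the scaling between libraries. Of 13 pairs, 10 did not overlap between the time points. The share among pairs of other genes was not computed, and among single genes tested 52.7% did not overlap. Pfkm and Pfkp were both set against Pfkl, so the pairs are not independent. The two-sided exact permutation test gave p = 0.1 for each of these 10, the smallest value that 3 libraries against 3 allow, and 0.13 after Benjamini-Hochberg adjustment over the 13, so no pair could pass 0.05. In 6 of the 10 the ratio of the first to the second gene named was higher at 48 h. The log2 ratio of G6pc3 to G6pc was -7.33 ± 0.13 at 0 h and -4.35 ± 0.40 at 48 h (SD, n = 3), a difference of 2.98. The ratio of Pygb to Pygl differed by 2.46, that of Pkm to Pklr by 2.45 and that of Pck2 to Pck1 by 2.24. For Slc2a1 to Slc2a2 the difference was 1.22 and for Gys1 to Gys2 it was 1.09.

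In 4 pairs the ratio was lower at 48 h without overlap. Ldhb to Ldha differed by -2.54, Aldoc to Aldoa by -1.22, Pfkm to Pfkl by -0.45 and Pfkp to Pfkl by -0.41. For Pfkp to Pfkl the lowest log2 ratio at 0 h was -5.65 and the highest at 48 h -5.66, and the difference was -0.15 without 48 h replicate 3. The ratios of Pfkfb3 to Pfkfb1 (-0.71), Eno3 to Eno1 (-0.60) and Ppp1r3c to Ppp1r3b (-0.24) overlapped between the time points (exact permutation p from 0.4 to 0.6), and the first turned to 0.10 without 0 h replicate 2. The changes in ratio left the order of the forms as it was in most families. In 11 of the 13 pairs the first gene held under 50% of the pair in every library. Pkm made up 2.92% ± 1.05 of its pair with Pklr at 0 h and 13.6% ± 2.24 at 48 h, and G6pc3 0.619% ± 0.0564 and 4.78% ± 1.27 (SD, n = 3). Pygb went from 0.852% ± 0.233 to 4.56% ± 1.48 of its pair and Gys1 from 3.39% ± 0.22 to 7.01% ± 1.58. Slc2a1 held 8.94% to 10.4% of its pair at 0 h and 29.6%, 18.0% and 15.3% in the 48 h libraries. Pfkm made up 53.3% ± 3.07 and 45.6% ± 1.31 of its pair with Pfkl, or 42.6% and 35.2% when the longest transcript was taken as the length, so the order of these forms at 0 h rests on that choice. With the same lengths Pkm made up 5.24% and 22.5%, and Pygb 0.481% and 2.62%.

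**Figure D4:**
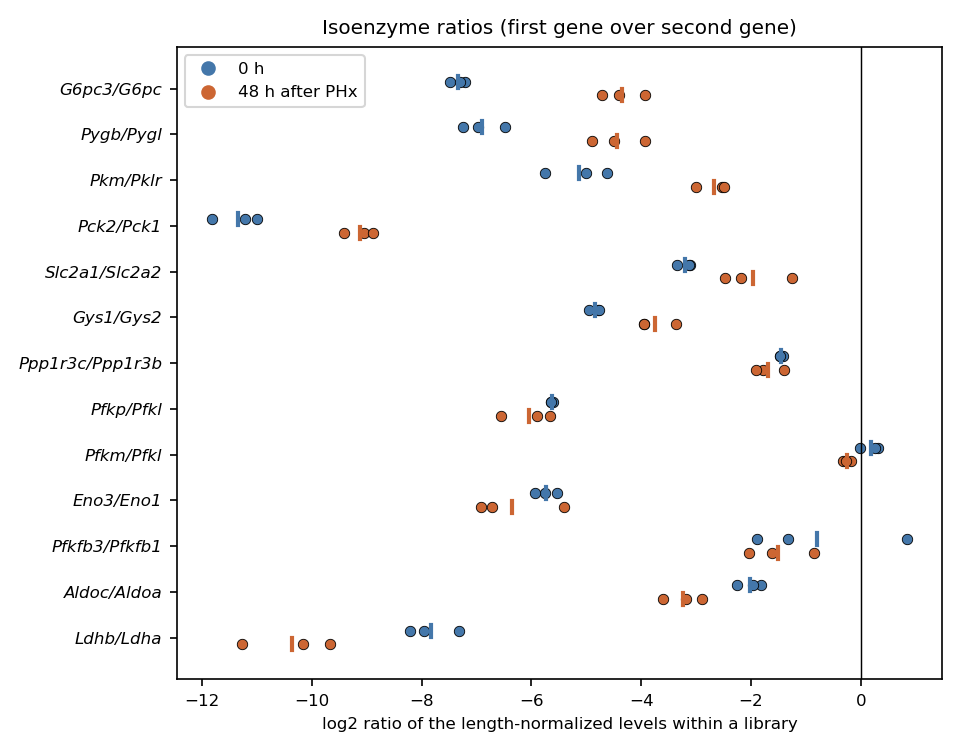
Log2 ratio of length-normalized levels of the first to the second gene for 13 pairs, with a point for each of the 3 libraries per time point and a bar for the mean. The 48 h points lie to the right of all 0 h points in 6 pairs, from G6pc3/G6pc to Gys1/Gys2, and to the left in 4 pairs, with Ldhb/Ldha at the far left.

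Further genes of the same pathways were read from 7 lists with 79 genes, of which 69 were tested, and 15 were higher and 21 lower, with a median log2 fold change of -0.14. In percent, 21.7% of the 69 tested genes of the lists were higher and 30.4% lower. Of all genes tested, 21.4% were higher and 19.3% lower, with a median of -0.003. The counts of increases and decreases were 3 and 0 of 6 for other glycolysis genes, 1 and 2 of 6 for other gluconeogenesis genes, 3 and 5 of 17 for other glycogen genes, 5 and 4 of 16 for pyruvate and lactate genes, 0 and 1 of 6 for fructose and galactose genes, 0 and 2 of 3 for other sugar transporters and 3 and 7 of 15 for regulators. Of the other glycolysis genes, Tigar, a phosphatase of fructose 2,6-bisphosphate, and Ldhd, the D-lactate dehydrogenase, both rose by a log2 fold change of 0.79 (adjusted p = 0.000784 and 0.00572). Bpgm, which makes 2,3-bisphosphoglycerate beside the main pathway, had 6.89 CPM ± 0.689 at 0 h and 10.6 CPM ± 0.105 at 48 h (SD, n = 3 each), and rose by 0.62 (SE 0.13, adjusted p = 0.00422).

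Around pyruvate and oxaloacetate, Mdh2, the mitochondrial malate dehydrogenase, rose by a log2 fold change of 0.91 (adjusted p = 0.00146). The transaminases Gpt and Got1 fell by 0.81 (adjusted p = 0.00102) and 0.79 (adjusted p = 0.0354). Their counterparts Gpt2, with means of 372 and 355 CPM, and Got2, with 300 and 301 CPM, did not pass the test (adjusted p = 0.766 and 0.986). The Got1 libraries overlapped, with 247 to 398 CPM at 0 h and 122 to 262 CPM at 48 h, and its adjusted p was 0.0743 to 0.109 without 0 h replicate 1, 0 h replicate 3, 48 h replicate 2 or 48 h replicate 3, with log2 fold changes of -0.83 to -0.53. The call was also lost with library size only (-0.60, adjusted p = 0.0700). Pdk1, a kinase that switches pyruvate dehydrogenase off, fell by 1.49 on the log2 scale (adjusted p = 1.53e-05). Pdp1, a phosphatase that switches that enzyme on, was higher by 2.51 (adjusted p = 7.39e-05) from a low level of 0.723 CPM ± 0.147 (SD, n = 3). Pdp2, the far more abundant phosphatase of this enzyme in the list, averaged 97.0 CPM at 0 h and 77.2 CPM at 48 h. It did not pass the test (log2 fold change -0.33, adjusted p = 0.114). The other kinases of the same enzyme, which were named after their values had been seen, did not move in one direction. Pdk2 fell by 0.73 on the log2 scale (adjusted p = 0.0088), while Pdk4 rose by 1.21 (adjusted p = 0.00313), from 8.82 to 20.4 CPM in the means, and Pdk3 rose by 1.93 (adjusted p = 0.00921), from 0.213 to 0.83 CPM. The lactate exporter Slc16a3 rose by 1.35 (adjusted p = 0.00727), from 0.625 to 1.59 CPM in the means.

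In glycogen metabolism, Ppp1r3g, another glycogen-targeting subunit of protein phosphatase 1, had 14.0, 4.68 and 14.7 CPM at 0 h and 1.19, 1.37 and 0.486 CPM at 48 h. It was the lowest of this list, with a log2 fold change of -3.45 ± 0.46 SE (adjusted p = 0.00022). Epm2a, the glycogen phosphatase laforin, fell by 1.40 (adjusted p = 0.00145), and Pgm2, a phosphoglucomutase, rose by 1.10 (adjusted p = 0.00118). Galt, of galactose metabolism, fell by 0.46 (adjusted p = 0.0101), a call that was lost without TMM factors. The sugar transporters Slc2a9 and Slc2a8 fell by 0.98 (adjusted p = 4.86e-05) and 0.75 (adjusted p = 0.000557).

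Among regulators, Mlxipl codes for ChREBP, the factor that binds the carbohydrate response element. It had 980.2, 1049 and 963 CPM at 0 h and 244, 410 and 383 CPM at 48 h, and its log2 fold change was -1.53 ± 0.19 SE (adjusted p = 0.000145). Txnip, a brake on glucose uptake, fell by 1.98 (adjusted p = 3.62e-05) and the insulin receptor substrate Irs2 by 1.12 (adjusted p = 0.00465). Hif1a, the hypoxia-inducible factor subunit, rose by 0.42 on the log2 scale (SE 0.14, adjusted p = 0.0347), and its adjusted p was 0.0546 to 0.0998 when any single library other than 0 h replicate 3 was left out, with log2 fold changes of 0.28 to 0.46.

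Sequence shared between genes limits some of these values. For 8 of the 42 genes the annotation holds copies with at least 95% identity over at least 500 bases, most of all for Gapdh, whose 73 copies held 1.87% as many counts as the gene itself. Adding the counts of all copies to their genes moved Gapdh to a log2 fold change of 0.73 (adjusted p = 0.0212) and Pkm to 0.39, and changed no call among the 42. The files list 0 multiply aligned reads, so how reads that fit a gene and its copy equally well were handled cannot be read from the counts. Whether reads were counted by strand is not given in the sources used here, which touches Pklr with Hcn3 and Gpi1, 11.5% of whose exon bases are shared with Gm26762 on the opposite strand. Exon bases shared on the same strand, 15.3% of those of Pkm with Gm49759, 17.4% of Pfkfb2 with Gm29427 and 10.2% of Pfkm with Gm26513, are shared whether or not strand was used.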

How the data were processed

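Bulk RNA-Seq counts of 6 hepatocyte libraries, 3 at 0 h and 3 at 48 h after PHx, were analysed. The authors deposited raw read counts per gene, not normalized, with 1 file per library. The submitters' processing notes name FastQC 0.11.5, Trim Galore 0.6.4, STAR 2.6, HTSeq 0.12.4, DESeq2 and the build mm10. Strand and counting mode are not given in the sources used here. Gene identifiers with versions are those of GENCODE M21 (GRCm38), which supplied names, positions and exon lengths. Reads outside annotated features made up 24.3% to 32.7% of the reads listed and ambiguous reads 4.27% to 5.29%, and both stayed out of library sizes and tests. Reads carry no molecular identifiers, so floors cover counting error only.

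Samples were grouped by the labels. Genes that reached 10 counts in 3 or more libraries were fitted with edgeR 4.0.16 in R 4.3.3, with TMM factors (0.913 to 1.11), the quasi-likelihood test and time as the only term. The standard error was the size of the log2 fold change divided by the square root of F. CPM are TMM-scaled and TPM were computed from union exon lengths. Isoenzyme ratios were compared by two-sided exact permutation tests. P-values of the fit weigh the difference between the time points against the spread between these libraries. The members and lists were chosen with earlier results of these data known. All 42 members are reported, and from each further list the 3 largest changes past the threshold with a mean of at least 1 CPM, plus Mlxipl and Hif1a and, chosen after their values were seen, Pdk2, Pdk3 and Pdk4. Some genes covered by this rule are not reported here and are not counted in the lists. Alternatives were DESeq2 1.42.0, RLE factors, library size only, TMM from protein-coding genes, no count filter, at least 50 counts, a replicate block, leaving out each library and, chosen after seeing the data, counts with those of near-identical copies added. Ratios were also computed with 0.5 counts added and with the longest transcript as length. Replicate numbers were not treated as pairs in the main fit.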

Additional observations from a re-analysis of the deposited data

How the results depend on the processing

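With library size only, 13 of the 42 genes were higher in place of 7, 2108 of all genes were lower in place of 3288, the median of the 42 was 0.048 in place of -0.16, and uncalled log2 fold changes turned to 0.19 for Hk1, 0.062 for Pfkl, 0.014 for Pck1, 0.12 for Slc2a1 and 0.034 for Ugp2. The median of the 42 was -0.21 with TMM from protein-coding genes, where Pcx turned to -0.0062. With at least 50 counts in 3 libraries the median was -0.12. That median leaves out Eno3, Hk2, Hk3, Ldhb, Pfkfb4 and Pfkp, which did not reach this filter. Without single libraries the median ranged from -0.20 to -0.069, 5 to 9 of the 42 were higher and 12 to 13 lower. The genes that changed sign in these fits were not called with all 6 libraries, and Pfkfb3 passed without 0 h replicate 2 (adjusted p = 0.0185). They ranged from -0.18 to 0.14 for Hk1, -0.60 to 0.80 for Pfkfb3, -0.11 to 0.32 for Pfkfb4, -0.12 to 0.14 for Pcx and -0.21 to 0.062 for Slc2a1. The ratio of Pfkfb3 to Pfkfb1 ranged from -1.26 to 0.10. The cause of these shifts was not tested. With the replicate number as a block, 7 of the 42 were higher and 12 lower, the median was -0.11, and Hk1 (0.0052) and Pfkfb3 (0.14) changed sign. Same-numbered libraries did not deviate together (correlations of deviations 0.033, -0.067 and -0.14), and differently numbered ones gave -0.049 to 0.13. No pairing was seen, but with 3 libraries a group such a check cannot exclude it. Of 19 called genes, 17 kept their call and direction in all 14 alternatives. With 3 libraries a group, genes under 1 CPM such as Ldhb and Pfkp rest on few counts.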
